A study of Mus musculus with 9 samples.

Results

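Collagens are the triple-helical proteins that form most of the connective tissue of the gut wall and the sheet beneath its epithelium. All probes whose gene symbol on the array platform has the form of a collagen chain (Col, a type number, the letter a and a chain number) were taken, whatever their values. They were 42 genes of the 17742 with a symbol, measured by 48 of the array's 26423 probes. The samples were colon RNA of female BALB/c mice, hybridised to 9 arrays in 3 groups of 3. Mock mice were untreated. Sham mice received 12.5 mg/kg of the carcinogen azoxymethane (AOM) into the peritoneum on day 1, and from day 8 were given drinking water with 2.5% dextran sodium sulfate (DSS), an irritant of the colon epithelium, for 5 days and plain water for 16 days, with 3 additional DSS cycles. The Vanillin group went through this AOM/DSS course too and took 100 mg/kg of vanillin by mouth for 91 days. Both treated groups thus share the carcinogen and the irritant. Words such as rose, fell and step compare separate groups and do not follow the same mice over time. Sham against Mock asks how the collagens of treated colons differ from untreated ones, and Vanillin against Sham asks the same of AOM/DSS with and without vanillin, which the study's title says eased the disease. The labels used here give neither the age of the mice nor whether each array of a group is another mouse, so a p-value here reflects array-to-array spread alone, which may be technical.

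Collagen chains are assembled by threes into a triple helix, which needs glycine at regular places and hydroxylated prolines and lysines. The fibrillar types (I, II, III, V, XI, XXIV and XXVII) build the cross-banded fibres that carry tension, and types I and III predominate in the colon submucosa. Type IV forms the network of basement membranes, under the crypt epithelium and around vessels and muscle cells, from the paired chains Col4a1 and Col4a2 or the more restricted chains Col4a3 to Col4a6. Types VII, XV, XVII and XVIII lie at the basement membrane zone: Col7a1 makes the anchoring fibrils and Col17a1 the hemidesmosome collagen of stratified epithelia such as skin, while Col15a1 and Col18a1 carry sugar chains and release endostatin-like fragments. Type VI forms beaded filaments around cells, and the fibril-associated collagens with interrupted helices (FACIT: types IX, XII, XIV, XVI, XIX, XX and XXII) sit on the surface of other fibres. Types VIII and X form hexagonal short-chain networks, and types XIII, XXIII and XXV span the cell membrane.

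The upstream sequences of the chains on which the results turn are printed here to show how differently these genes begin. They come from RefSeq on mouse build GRCm38.p6, each as the 250 bases before the gene's start, read 5′ to 3′ on the gene's own strand. Capitals mark any of 4 short motifs on either strand: the TATA box TATAAA, the CCAAT box CCAAT, the GC box GGGCGG and the AP-1 site TGANTCA. Col1a2 (chr6:4505368-4505617, + strand) and Col3a1 (chr1:45311288-45311537, + strand) are fibrillar chains. Col7a1 (chr9:108953336-108953585, + strand) and Col17a1 (chr19:47692043-47692292, − strand) are basement membrane zone chains of stratified epithelium.
Col1a2: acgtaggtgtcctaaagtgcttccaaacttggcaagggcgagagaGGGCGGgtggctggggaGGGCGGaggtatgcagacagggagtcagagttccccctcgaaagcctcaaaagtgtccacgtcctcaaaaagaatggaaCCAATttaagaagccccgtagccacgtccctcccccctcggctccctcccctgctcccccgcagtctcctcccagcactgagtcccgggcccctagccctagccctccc
Col3a1: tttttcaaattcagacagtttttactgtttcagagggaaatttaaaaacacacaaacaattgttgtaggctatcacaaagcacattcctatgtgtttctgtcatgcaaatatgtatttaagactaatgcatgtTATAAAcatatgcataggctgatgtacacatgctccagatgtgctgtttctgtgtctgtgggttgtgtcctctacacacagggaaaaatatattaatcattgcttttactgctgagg
Col7a1: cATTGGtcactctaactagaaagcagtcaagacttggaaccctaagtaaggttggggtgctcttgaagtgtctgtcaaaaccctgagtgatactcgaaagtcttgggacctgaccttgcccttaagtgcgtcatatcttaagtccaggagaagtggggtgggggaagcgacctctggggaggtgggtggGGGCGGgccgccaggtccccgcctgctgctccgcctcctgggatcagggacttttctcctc
Col17a1: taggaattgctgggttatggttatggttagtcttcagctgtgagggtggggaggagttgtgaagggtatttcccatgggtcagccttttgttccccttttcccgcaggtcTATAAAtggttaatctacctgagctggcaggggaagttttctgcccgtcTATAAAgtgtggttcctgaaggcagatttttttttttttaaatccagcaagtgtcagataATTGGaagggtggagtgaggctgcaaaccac
These 4 windows overlap no annotated gene. The Col1a2 window holds 2 GC boxes, 205 and 188 bases before the start, and a CCAAT box at 109, whereas that of Col3a1 has a TATA box 117 bases before the start and is poorer in G and C, at 35.2% against 62.0%. The Col17a1 window holds a TATA box at 140 and another at 91 bases before the start, and the Col7a1 window a GC box at 61. Windows were found for 34 of the 42 collagen genes, 37 in number because some genes have more than 1 start. The GC box was present in 21 of the 37, or 56.8%, against 32.7% of all 32851 promoter windows. It was in 6 of the 8 fibrillar windows, that of Col3a1 not among them. The TATA box was in 13.5% against 12.4%, the CCAAT box in 35.1% against 33.8%, and the AP-1 site in 2.7% (1 window, that of Col6a1) against 6.75%. Such matches describe letters only.

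The type IV pairs Col4a1 with Col4a2 and Col4a5 with Col4a6 begin close together on opposite strands. The annotated starts of Col4a1 (− strand) and Col4a2 (+ strand) lie 21 bases apart on chromosome 8, placed so that the first 22 bases of the annotated genes overlap. This stretch (chr8:11312805-11312826, + strand) is shown because both annotated genes include it, with a GC box in capitals.
Col4a2 to Col4a1: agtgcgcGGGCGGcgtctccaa
The starts of Col4a5 (+ strand) and Col4a6 (− strand) lie 1343 bases apart on chromosome X, facing away from each other without overlap. By their brightest probes the members of both these pairs changed in the same direction in every comparison, as described with the type IV chains. The window before Col4a4 overlaps the annotated Col4a3, and the distance of their starts was not measured. By their brightest probes these genes differed in direction in Sham against Mock, at −0.92 for Col4a3 (not called) and 0.55 for Col4a4.

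Each array gave an intensity, a probe's brightness on a linear scale, for every probe. Median intensities of the arrays ran from 319.6 to 320.1, replicates correlated at 0.995 to 0.998 over all probes, and no collagen value was below 0 or above 14110.1, well under the highest reading of 65509.67. In 6 of the 48 collagen probes every array was under an intensity of 50. Changes are differences of log2(intensity + 16), which understates the change of dim probes, and a probe was called changed at a Benjamini-Hochberg adjusted p under 0.05 over all 26423 probes in limma. Of 14 markers of the colon's columnar epithelium 7 rose and 3 fell in Sham, and 0 rose (0 also at an unadjusted p under 0.05 in limma) and 8 fell from Sham to Vanillin. Muc2 had means of 22811 in Mock, 58140.4 in Sham and 41013 in Vanillin. Cdx2 had 473, 4265 and 2783, and the transporter Slc26a3 had 19645, 2478 and 1769. The Krt8 probe read near 0 and the Krt18 probe was dim. Lgals4 and Epcam had means near the highest reading, where a rise could be hidden. All 12 stratified squamous epithelium markers, such as the keratin Krt5 (means of 34783, 590.3 and 16967 in Mock, Sham and Vanillin), fell in Sham with a median log2 change of −6.34, and 11 of them, all but Krt14, rose from Sham to Vanillin, with a median of 5.31. Of the 11 adipocyte markers 9 fell and 2 rose in Sham (median −4.51), and from Sham to Vanillin 9 rose and 2 fell. All 7 measured skeletal muscle markers fell in Sham (median −5.77). In these bulk samples fewer cells of a type, less RNA per cell and other tissue in the piece taken cannot be told apart.

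The collagens as a whole moved in both directions. From Mock to Sham 16 of the 48 probes rose, 15 fell and 17 were not called, which is 33.3% higher and 31.2% lower, against 36.5% and 23.2% of all probes. The share called in either direction was 64.6% against 59.7% of all probes, and the arrays of the 2 groups did not overlap in 34 of 48 probes, 70.8% against 67.1%. By at least 1 on the log2 scale 5 collagen probes rose and 6 fell, where 5.9% and 7.57% of all probes did. The median change was 0.04, beside 0.10 over all probes. From Sham to Vanillin 14 rose, 10 fell and 24 were not called, 29.2% higher and 20.8% lower against 15.7% and 32.2% of all probes. In either direction 24 of 48 were called, against 47.9% of all probes, the share without overlap 64.6% against 56.3%, and the median −0.02 beside −0.09 over all probes. By at least 1 on the log2 scale 4 rose and 0 fell, where 3.8% and 0.67% of all probes did, and the largest fall was that of Col22a1 at −0.999. Vanillin against Mock had 18 higher and 14 lower, 37.5% and 29.2% against 24.5% and 26.2%, and 66.7% called against 50.7%. There 33 probes did not overlap, 68.8% against 60.4%. By at least 1 on the log2 scale 3 were higher and 1 lower, against 3.68% and 4.01% of all probes. These shares of all probes are those to set beside the counts of each collagen class and marker list.

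**Figure D1:**
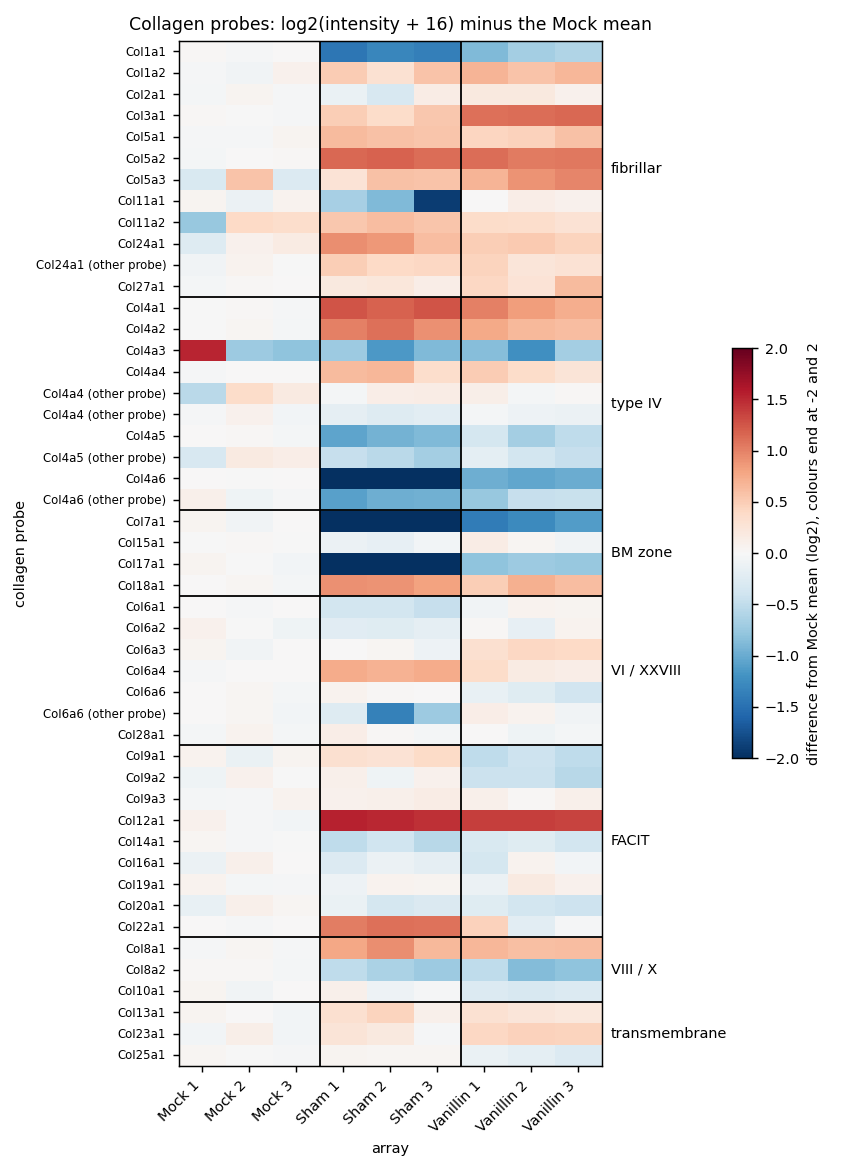
Each row is 1 collagen probe, grouped by class, and each column 1 array; colour gives log2(intensity + 16) minus the mean of the 3 Mock arrays, ending at −2 and 2 (BM zone, basement membrane zone). Rising and falling chains stand side by side within the fibrillar, type IV and basement membrane zone classes, and Mock 1 stands apart from the other Mock arrays for Col4a3 and Col11a2.

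The fibrillar chains were split after AOM/DSS, type I between the probes of Col1a1 and Col1a2. Of the 12 probes (11 genes) 6 rose from Mock to Sham, 2 fell and 4 were not called, where 36.5% of all probes rose and 23.2% fell, and the median log2 change was 0.46 (0.10 over all probes). From Sham to Vanillin 4 rose, 0 fell in limma (1 at an unadjusted p under 0.05) and 8 were not called (median 0.22), where 15.7% of all probes rose and 32.2% fell (median −0.09), and against Mock the Vanillin group had 8 higher and 1 lower (median 0.46). At an adjusted p under 0.05 in fits without Mock 1, Mock 3, Sham 3 or Vanillin 1, 1 or 2 fibrillar probes were also lower in Vanillin than in Sham.

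Col1a2, a chain of type I, the main tensile collagen, read 3298, 3197 and 3539.5 in the Mock arrays, 4781, 4128 and 4982 in Sham and 5383, 4948 and 5314 in Vanillin. Every Sham and Vanillin array lay above every Mock array, and Sham and Vanillin overlapped. It rose by 0.46 on the log2 scale in Sham (SE 0.078, adjusted p = 0.00072) and was 0.64 above Mock in Vanillin (adjusted p = 0.00013), while Vanillin minus Sham was 0.17 (adjusted p = 0.098, or 0.04 with the replicate number as a block in the fit of all arrays). Its partner chain Col1a1 read 243, 234 and 239 in Mock, 77, 87.6 and 82.8 in Sham and 122, 143 and 152 in Vanillin. The Col1a1 probe thus had 3 separate levels, highest in Mock and lowest in Sham. No other probe measured Col1a1. Its Mock mean of 238.6 lay under the lowest array median of 319.6 and far under the 3345 of Col1a2. The split of type I thus rests on a single Col1a1 probe of low intensity. This probe fell by 1.37 in Sham (SE 0.077, adjusted p = 4.0e-07) and rose by 0.65 from Sham to Vanillin (adjusted p = 0.00015), remaining 0.72 below Mock on the log2 scale. Col3a1, the single chain of type III, which accompanies type I in distensible tissue, read 1355, 1325 and 1298 in Mock, 1871, 1707 and 1936 in Sham, and 2859.6, 2910.1 and 2968 in Vanillin. It was the collagen probe that rose at each step, by 0.46 in Sham (SE 0.056, adjusted p = 7.6e-05) and by a further 0.66 with vanillin (adjusted p = 1.8e-05), so that Vanillin was 2.18-fold above Mock on the fitted log2(intensity + 16) scale. Its mean intensities were 2913 ± 54.5 in Vanillin and 1326 ± 28.3 in Mock (SD, n = 3 arrays).

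Type V, which nucleates and limits the width of type I fibres, was higher after AOM/DSS in 2 of its 3 chains, neither of which was called between Sham and Vanillin. Col5a2 read 461, 479.7 and 484 in Mock, 1075, 1091 and 1053 in Sham and 1045, 989 and 1008 in Vanillin. The rise in Sham was 2.22-fold on the fitted scale (log2 1.15, SE 0.045, adjusted p = 3.2e-08), and Vanillin minus Sham was −0.08 (adjusted p = 0.18) although the arrays of these groups did not overlap. Col5a1 read 382, 378 and 399.9 in Mock, 607, 585 and 573 in Sham, and 528, 536 and 585 in Vanillin, a rise of 0.59 in Sham (adjusted p = 1.4e-05). Both chains were above Mock in Vanillin, by 1.07 and 0.49. The other chain, Col5a3, was 0.85 above Mock in Vanillin (adjusted p = 0.0099), but its Mock arrays disagreed at 1462, 2689 and 1485. Without Mock 2 its Sham minus Mock change was 0.76 (adjusted p = 0.00076, against 0.092 with it), and Vanillin minus Sham was 0.38 at an adjusted p of 0.019 (0.19 with it). It was also called in a fit of the 6 Sham and Vanillin arrays alone (0.030), and in that fit with the replicate number as a block (0.0058). Both changes are part of this last fit, called the 6-array block fit from here on, so a call it gains or loses is not to be ascribed to the block alone; where the 6 arrays alone change the call too, that value stands first.

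The minor fibrillar chains differed among themselves. Col11a1, a type XI chain found inside cartilage fibres and in some tumour stroma, read 109, 94.1 and 109.8 in Mock, 60.0, 49.4 and 16.1 in Sham and 105, 116 and 111 in Vanillin. The Sham arrays were below all others, Sham 3 the lowest. It fell by 1.15 in Sham (SE 0.27, adjusted p = 0.0049), rose by 1.22 from Sham to Vanillin (adjusted p = 0.0051) and was 0.07 from Mock in Vanillin (adjusted p = 0.84). Col24a1, a fibrillar chain best known from bone and cornea, rose in Sham on both of its probes, by 0.80 and 0.44, and both were above Mock in Vanillin (0.49 and 0.33). Vanillin minus Sham for its brighter probe was −0.32 (adjusted p = 0.054), and was called without Mock 1 (0.015), without Mock 3 (0.049), without Sham 3 (0.025), with the 6 arrays alone (0.026) and in the 6-array block fit (0.022). The dimmer Col24a1 probe was called lower there without Vanillin 1 (adjusted p = 0.047). Col27a1, known from cartilage, was 0.26 higher in Vanillin than in Sham (adjusted p = 0.029). That call was lost without Sham 1 (0.065), Sham 3 (0.081) or Vanillin 3 (0.062), with the 6 arrays alone (0.059) and in the 6-array block fit (0.085), and its Sham minus Mock change of 0.19 was called without Vanillin 2 (0.038) or Vanillin 3 (0.018). Col2a1, the chief collagen of cartilage, and Col11a2 were called in no comparison. Col11a2 read 121, 287 and 279.9 in Mock, and without Mock 1 it was 0.19 higher in Sham than in Mock (adjusted p = 0.017) and 0.23 lower in Vanillin than in Sham on the log2 scale (0.0051; 0.012 with the 6 arrays alone and 0.025 in the 6-array block fit). It was also called higher in Sham without Mock 2 (0.038) or Mock 3 (0.047). Without Sham 3 the Col2a1 probe was called lower in Sham than in Mock (−0.23, adjusted p = 0.026) and higher in Vanillin than in Sham (0.39, 0.0035). Of 10 cartilage markers 3 rose and 5 fell in Sham. Matn1 was dim, at means of 17.8, 11.9 and 16.2 in Mock, Sham and Vanillin, while Chad read 958, 760.3 and 636 and Matn4 379, 719.8 and 631. The part of cartilage in these changes was not tested.

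Fibroblasts are the main source of fibrillar collagen, and most of their measured markers fell in Sham. Of 11 measured markers (Col1a1 among them) 3 rose and 8 fell in Sham, with a median log2 change of −0.88, and 9 rose and 0 fell in limma (0 also at an unadjusted p under 0.05) from Sham to Vanillin, with a median of 0.65. Their summed intensity was 70292 to 73544 in Mock, 44249 to 46322 in Sham and 66057 to 71895 in Vanillin, and none was at 0. Pdgfra rose (0.31 on the log2 scale in Sham), while Fap, a marker of activated fibroblasts, fell (−1.84). Smooth muscle markers, 6 measured of 9 listed, all fell in Sham, with a median of −2.02. Their sum was 93504 to 94877 in Mock, 40406 to 43125 in Sham and 46551 to 49840 in Vanillin. Acta2, much of this sum, had a Mock mean of 65427.5, close to the highest reading of 65509.67. The fall of the sum may thus be understated. The part of these cell types in the fibrillar changes was not tested.

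**Figure D2:**
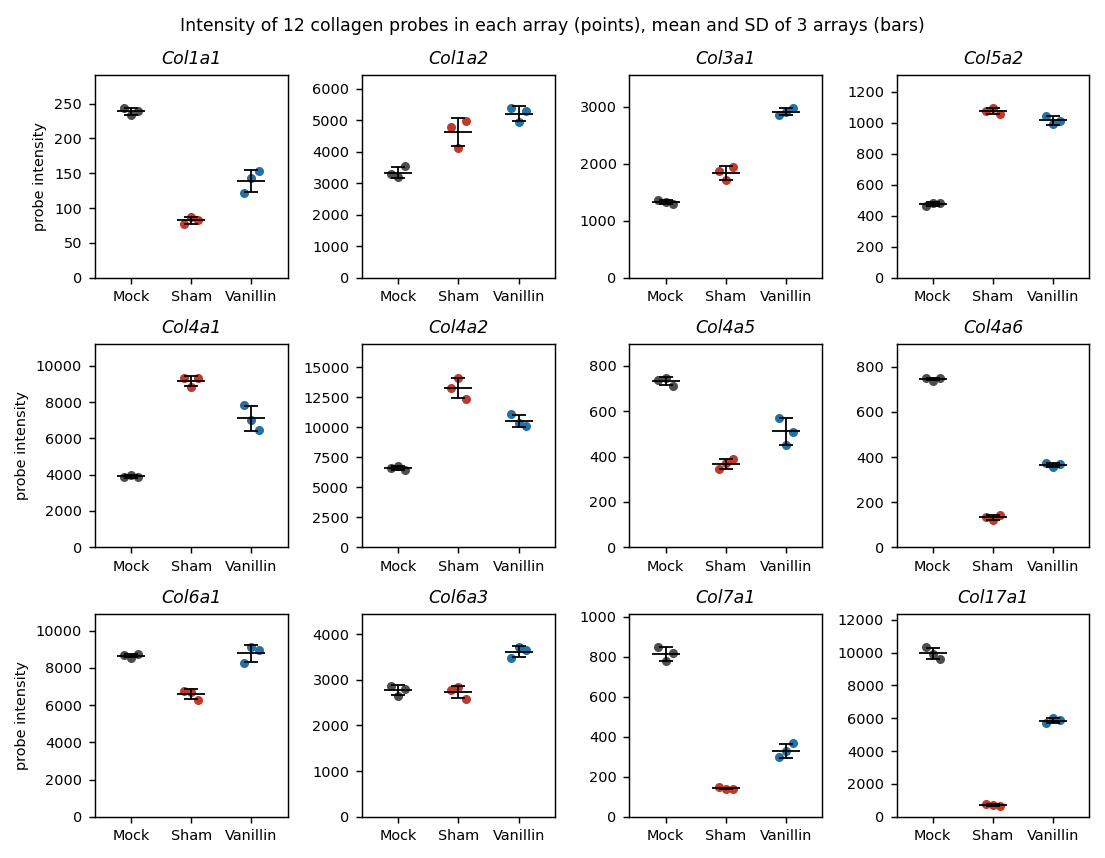
Probe intensity, on a linear axis from 0, of 12 collagen genes in each of the 9 arrays (points), with the mean and SD of 3 arrays (bars). Col3a1 rises from Mock through Sham to Vanillin, Col4a1 and Col4a2 peak in Sham, and Col1a1, Col4a5, Col4a6, Col7a1 and Col17a1 are lowest in Sham with Vanillin between Sham and Mock.

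The type IV chains split, with Col4a1 and Col4a2 on one side and Col4a5 and Col4a6 on the other. Of 10 probes (6 genes) 3 rose and 5 fell from Mock to Sham, with a median of −0.39, beside the 36.5% and 23.2% of all probes. The falls are those of both Col4a5 probes, both Col4a6 probes and a Col4a4 probe that was dim in every array. By the brightest probe of each gene Col4a1, Col4a2 and Col4a4 rose, Col4a5 and Col4a6 fell and Col4a3 was not called. From Sham to Vanillin 3 rose and 2 fell (median 0.06), beside 15.7% and 32.2%, and against Mock the Vanillin group had 3 higher and 3 lower (median −0.21). Col4a1 and Col4a2, the chains of nearly all basement membranes, were higher after AOM/DSS and lower with vanillin than without it. Col4a1 read 3865, 3988 and 3859 in Mock, 9314, 8821 and 9336 in Sham and 7863, 6989 and 6452 in Vanillin. Col4a2 read 6591, 6775 and 6417 in Mock, 13296, 14110.1 and 12395 in Sham and 11109, 10380.0 and 10098 in Vanillin. For both, no array of one group reached into another group, and Vanillin lay between Mock and Sham. The Sham rises were 2.34-fold (log2 1.23, SE 0.071, adjusted p = 5.1e-07) and 2.01-fold (log2 1.01, SE 0.062, adjusted p = 7.7e-07). From Sham to Vanillin they fell by 0.37 (adjusted p = 0.0026) and by 0.33 (adjusted p = 0.0022). Endothelial markers, whose cells rest on such membranes, had a median change of −0.13 in Sham and 0.27 from Sham to Vanillin, with 2 of 10 higher and 5 lower in Sham, and a summed intensity of 17532 to 17693 in Mock, 12862 to 13252 in Sham and 16410 to 17543 in Vanillin.

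Col4a5 and Col4a6, the chains of a second network found in basement membranes of smooth muscle and of stratified epithelium, moved the other way. The brighter Col4a6 probe read 749, 739 and 751 in Mock, 136, 121 and 141 in Sham and 373, 355 and 369 in Vanillin. It fell by 2.36 in Sham, to 0.195 of the Mock level (SE 0.058, adjusted p = 1.2e-09), and rose by 1.36 from Sham to Vanillin (adjusted p = 1.7e-07), remaining at 0.5 of Mock. Its other probe gave −1.01 in Sham against Mock, 0.46 from Sham to Vanillin and −0.56 in Vanillin against Mock, each called and in the direction of the brighter probe. The brighter Col4a5 probe read 736, 747 and 712 in Mock, 345, 372 and 389 in Sham and 572, 452 and 509 in Vanillin, with no overlap between groups. It fell by 0.96 in Sham (SE 0.083, adjusted p = 8.3e-06) and rose by 0.45 from Sham to Vanillin (adjusted p = 0.0021). The other Col4a5 probe fell by 0.56 in Sham (adjusted p = 0.0066), and its increase of 0.22 with vanillin was not called (adjusted p = 0.22; 0.028 in the 6-array block fit). Its Vanillin minus Mock change of −0.34 (adjusted p = 0.07) was −0.50 without Mock 1 (0.0031), which read 320.3 where Mock 2 and 3 read 464 and 448.

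Col4a3 and Col4a4, best known from kidney, lung and eye, were read by dim or discordant probes. The Col4a3 probe read 92.4 in Mock 1 but 6.67 and 5.56 in the other Mock arrays and at most 7.44 elsewhere, and was called in no comparison. The brightest of 3 Col4a4 probes rose by 0.55 in Sham (adjusted p = 0.00070), from 228, 235 and 234 to 367, 376 and 299.6, and was 0.38 above Mock in Vanillin (adjusted p = 0.0077). Without Sham 3 it was also called lower in Vanillin than in Sham (−0.27, adjusted p = 0.02). Of its other probes, both under 50 in every array, one fell by 0.21 in Sham (adjusted p = 0.0066) and the other was called in no comparison, so the Col4a4 probes disagree in direction.

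At the basement membrane zone 1 of 4 chains rose and 2 fell in Sham, and 2 rose and 1 fell from Sham to Vanillin. Of all probes 36.5% rose and 23.2% fell in Sham, and 15.7% rose and 32.2% fell from Sham to Vanillin. Col17a1, the transmembrane collagen of hemidesmosomes that ties basal keratinocytes to their basement membrane, had the largest change of the 48 collagen probes. It read 10310.1, 9932 and 9587 in Mock, 747, 717 and 665 in Sham and 5688, 6023 and 5870.0 in Vanillin. The groups lay far apart, with Vanillin nearer to Mock. The fall in Sham was 13.7-fold (log2 −3.78, SE 0.057, adjusted p = 4.7e-11), and the rise from Sham to Vanillin 8.11-fold (log2 3.02, adjusted p = 4.4e-10). Vanillin remained 0.76 below Mock on the log2 scale (adjusted p = 5.2e-06). Col7a1, whose anchoring fibrils hold the skin's basement membrane to the dermis, read 846, 776 and 821 in Mock, 146, 138 and 140.1 in Sham and 298, 327 and 367 in Vanillin. It fell 5.27-fold in Sham (log2 −2.40, SE 0.074, adjusted p = 6.0e-09) and rose 2.2-fold from Sham to Vanillin (log2 1.14, adjusted p = 3.4e-06).

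The stratified epithelium markers all fell in Sham, and 11 of them rose from Sham to Vanillin. Their 12 genes summed to an intensity of 533949 to 538356 in Mock, 26753 to 27908 in Sham and 290601 to 343486 in Vanillin. Krt1, Ivl, Sprr1b and Krtdap had Sham means under 50. Krt10 in Mock and Vanillin, Krt13 in Mock and Lor in Vanillin were close to the highest reading. Lor in Mock 2 was also close to it, and Krt14 in Mock and in Vanillin 1 and 2 was not far below. Such readings limit these sums. The basal keratinocyte gene Trp63, of the same list, had means of 10026, 96.1 and 5901 in Mock, Sham and Vanillin. Krt14, another, was not called from Sham to Vanillin (adjusted p = 0.18), as Vanillin 3 read 11506, below every Sham array, against 64969 and 63608 in the other Vanillin arrays. Skeletal muscle markers, 7 measured of 12 listed, summed to 145784 to 153998 in Mock, 2935 to 3105 in Sham and 53942 to 58443 in Vanillin. Adipocyte markers summed to 135589 to 136695, 22630 to 23488 and 113833 to 116687, with Pparg near 0 in all groups. The part of squamous, muscle and fat tissue in the changes of Col17a1, Col7a1, Col4a5 and Col4a6 was not tested.

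The endostatin-bearing chains behaved otherwise. Col18a1, the chain of vascular and epithelial basement membranes, read 7368, 7540.4 and 7195 in Mock, 13854, 13756 and 12904 in Sham and 10384, 12071 and 11256 in Vanillin. As with Col4a1 and Col4a2, it rose in Sham (log2 0.87, SE 0.063, adjusted p = 2.3e-06) and fell from Sham to Vanillin by 0.27 (adjusted p = 0.0075), without overlap between the groups. Col15a1, found around muscle fibres and capillaries, read 814, 836 and 816 in Mock, 756, 732 and 794 in Sham and 915, 844 and 781 in Vanillin. It was called in no comparison, although without Vanillin 3 it was 0.20 higher in Vanillin than in Sham (adjusted p = 0.026).

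Type VI, a filament collagen made by most stromal cells, differed between its classical chains. Of the 7 probes of types VI and XXVIII 1 rose and 3 fell in Sham, and 3 rose and 2 fell from Sham to Vanillin. In Vanillin 2 were above and 1 below Mock (1 above without Mock 1). Of all probes 36.5% rose and 23.2% fell in Sham, 15.7% and 32.2% from Sham to Vanillin, and 24.5% and 26.2% against Mock. Col6a1 read 8709, 8543 and 8719.9 in Mock, 6739.9, 6720.0 and 6276 in Sham and 8249.7, 9093 and 8979 in Vanillin. The Sham arrays were below all others, and Mock and Vanillin overlapped. It fell by 0.40 in Sham (SE 0.054, adjusted p = 0.00019) and rose by 0.41 with vanillin (adjusted p = 0.00029), to 0.02 from Mock (adjusted p = 0.81). Col6a2 read 986, 931 and 881 in Mock, 795, 788 and 821 in Sham and 943, 830.3 and 978 in Vanillin. Its fall of 0.21 in Sham (adjusted p = 0.026) was lost without Mock 1 (0.087), Mock 2 (0.060), Sham 1 (0.064) or Sham 2 (0.070), and its Vanillin minus Sham change of 0.19 (adjusted p = 0.053) was called without Vanillin 2 (0.013).

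Col6a3, the longest of the classical chains, read 2862, 2647 and 2791 in Mock, 2770.1, 2846 and 2586 in Sham, and 3474, 3707 and 3650.5 in Vanillin. Mock and Sham overlapped (log2 −0.02, adjusted p = 0.81), and the Vanillin arrays lay above both, by 0.40 over Sham (SE 0.056, adjusted p = 0.00041) and 0.38 over Mock. Col6a4 read 134, 138 and 138 in Mock, 239, 233 and 239 in Sham and 181, 154 and 152 in Vanillin. It rose by 0.73 in Sham (adjusted p = 9.3e-06) and fell by 0.50 with vanillin (adjusted p = 0.00023), and its remaining 0.22 above Mock (adjusted p = 0.018) was lost without Mock 1 (0.051). The Col6a6 probes disagreed: the brighter was not called in Sham (0.03, adjusted p = 0.67) and fell by 0.29 with vanillin (adjusted p = 0.0046), while the other fell by 0.77 in Sham (adjusted p = 0.015) and rose by 0.82 with vanillin (adjusted p = 0.015). The latter read 80.2, 28.9 and 53.4 in Sham, a wide spread. Col28a1 was under 50 in every array.

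Among the 9 FACIT probes 3 rose and 2 fell in Sham, or 33.3% and 22.2% against 36.5% and 23.2% of all probes. From Sham to Vanillin 1 rose and 3 fell, or 11.1% and 33.3% against 15.7% and 32.2%. In Vanillin 1 was above and 4 below Mock, or 11.1% and 44.4% against 24.5% and 26.2%. Col12a1, which coats type I fibres in tissues under mechanical load, read 1306, 1218 and 1185 in Mock, 3607, 3540.2 and 3445 in Sham and 3257, 3254 and 3181 in Vanillin. It had the largest rise of the collagen probes in Sham, 2.83-fold (log2 1.50, SE 0.05, adjusted p = 1.0e-08), and was 2.59-fold above Mock in Vanillin (adjusted p = 5.0e-08). Vanillin minus Sham was −0.13 (adjusted p = 0.065), with no overlap between the arrays. Col14a1, its close relative in mature fibres, read 1310.4, 1249.9 and 1272 in Mock, 889, 966 and 861 in Sham and 1027, 1078 and 989 in Vanillin. It fell by 0.49 in Sham (SE 0.058, adjusted p = 7.0e-05) and was 0.19 higher in Vanillin than in Sham (adjusted p = 0.027). That rise was not called without Sham 1 (0.073), Sham 3 (0.084) or Vanillin 2 (0.098) or with the 6 arrays alone (0.058), which leaves 0 FACIT probes higher.

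The type IX chains, typical of cartilage and also found in gut epithelium, fell with vanillin on 2 of 3 probes. Col9a1 read 219.6, 189 and 217 in Mock, 265, 257 and 278 in Sham and 141, 152 and 142 in Vanillin. The Vanillin arrays were the lowest and the Sham arrays the highest, with a rise of 0.33 in Sham (adjusted p = 0.0018) and a fall of 0.81 from Sham to Vanillin (SE 0.065, adjusted p = 1.3e-05). Col9a2 read 887, 1002 and 932 in Mock, 1006, 887 and 1001 in Sham and 689, 691 and 632 in Vanillin. Mock and Sham overlapped, and the Vanillin arrays lay below both, with −0.51 against Sham (adjusted p = 0.00038) and −0.48 against Mock (adjusted p = 0.00045). Col9a3 stayed under 50 in every array and was called in no comparison. Col22a1, known from muscle-tendon junctions, read 26.9, 25.8 and 26.9 in Mock, 70.6, 75.7 and 74.2 in Sham and 42.3, 20.8 and 25.8 in Vanillin. It rose by 1.07 in Sham (SE 0.14, adjusted p = 0.00014) and fell by 1.00 with vanillin (adjusted p = 0.00044), from low levels. Col20a1 fell by 0.26 in Sham (adjusted p = 0.030), a call lost without Mock 2 (0.10), Mock 3 (0.085), Sham 2 (0.10) or Sham 3 (0.080), and was 0.34 below Mock in Vanillin on the log2 scale (adjusted p = 0.010). Col16a1 and Col19a1 were called in no comparison.

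The short-chain type VIII of vessel walls split between its chains. Col8a1 read 655, 681 and 655 in Mock, 1146, 1281 and 1048 in Sham and 1056, 1020.5 and 1021 in Vanillin, a rise of 0.78 in Sham (SE 0.07, adjusted p = 1.0e-05). Col8a2 read 247, 245 and 235 in Mock, 165, 149.8 and 140.1 in Sham and 165, 126 and 133 in Vanillin, a fall of 0.63 in Sham (SE 0.094, adjusted p = 0.00035). Neither was called between Sham and Vanillin, with adjusted p = 0.094 for Col8a1 (0.018 without Sham 3) and 0.43 for Col8a2 (0.043 without Vanillin 1). Col10a1, the collagen of hypertrophic cartilage, was under 50 in every array and 0.28 lower on the log2 scale in Vanillin than in Sham (adjusted p = 0.0070).

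Of the membrane-spanning chains, Col23a1 was higher in Vanillin than in Sham by 0.30 (adjusted p = 0.014), at 366, 378 and 372 against 327, 309.6 and 266. Without Sham 3 it was also called higher in Sham than in Mock (0.23, adjusted p = 0.020). Col25a1 fell by 0.24 from Sham to Vanillin (adjusted p = 0.0031), from 225, 223 and 221 to 195, 187 and 176. Col13a1, a chain of cell adhesion sites, was 0.29 higher in Sham than in Mock (adjusted p = 0.015; 0.055 without Mock 3). Its 0.25 above Mock in Vanillin (adjusted p = 0.033) was lost without any one of Mock 2, Mock 3, Vanillin 1, Vanillin 2 or Vanillin 3 (0.058 to 0.10).

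**Figure D3:**
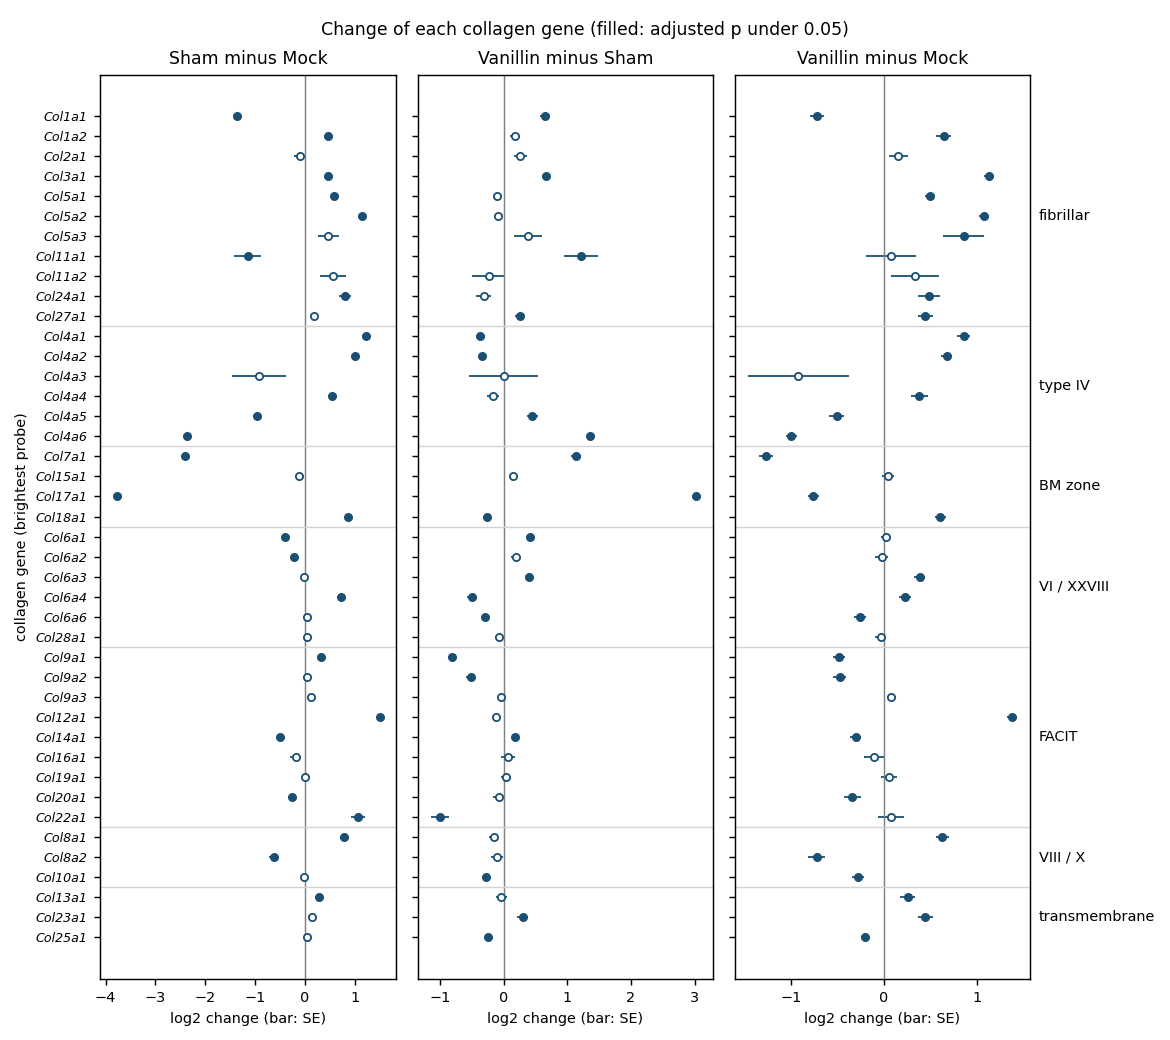
Log2 change (points) with its SE (bars) of the brightest probe of each of the 42 collagen genes in the 3 comparisons, grouped by class (BM zone, basement membrane zone); filled points have an adjusted p under 0.05, and each panel has its own axis. Col17a1, Col7a1 and Col4a6 lie farthest to the left in Sham minus Mock and to the right of most genes in Vanillin minus Sham.

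Set side by side, the 3 classes named at the outset differed in their medians. Against the Mock mean, the fibrillar probes had a median of 0.38 to 0.55 in the Sham arrays and 0.40 to 0.51 in the Vanillin arrays. The type IV probes had −0.45 to −0.32 in Sham and −0.28 to −0.12 in Vanillin, and the 26 probes of all other types −0.02 to 0.06 and −0.04 to −0.03. The 26 other probes gave 7 higher and 8 lower in Sham, 7 and 8 from Sham to Vanillin, and 7 and 10 against Mock. In Sham that is 26.9% and 30.8%, beside 36.5% and 23.2% of all probes. From Sham to Vanillin it is 26.9% and 30.8%, beside 15.7% and 32.2%, and against Mock 26.9% and 38.5%, beside 24.5% and 26.2%. For type IV the median lies between chains that rose and chains that fell and describes neither. It also counts every probe of Col4a4, Col4a5 and Col4a6, so these genes weigh more in it than the others.

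**Figure D4:**
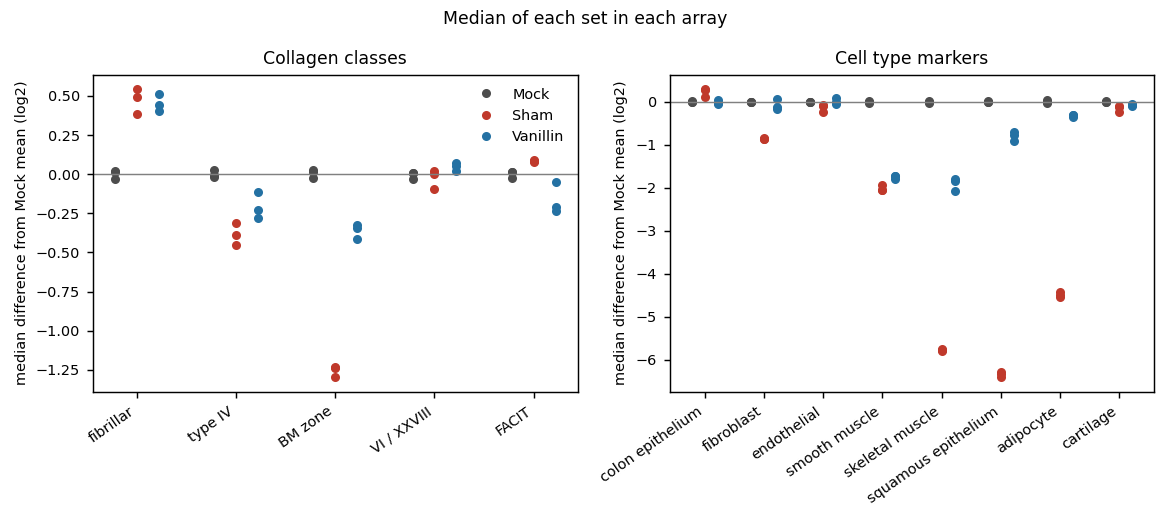
Median difference from the Mock mean (log2) in each of the 9 arrays, at left for 5 collagen classes and at right for 8 lists of cell type markers, with different axes. The fibrillar median is above 0 in all Sham and Vanillin arrays and the type IV and basement membrane zone (BM zone) medians are below 0, while the squamous median goes from about 0 in Mock to −6.41 to −6.28 in Sham and −0.91 to −0.70 in Vanillin.

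The first comparison and the second both use the Sham arrays, so their values are given side by side and no likeness is read from them. The patterns below were counted for collagen probes alone, so no share of all probes stands beside them. Of the 48 probes 7 were lower in Sham than in Mock, higher in Vanillin than in Sham and still lower than Mock: those of Col1a1, Col7a1, Col14a1 and Col17a1, both of Col4a6 and the brighter of Col4a5. The opposite pattern, a rise in Sham, a fall with vanillin and a level still above Mock, was called for 4: Col4a1, Col4a2, Col18a1 and Col6a4. A rise in Sham that vanillin did not move past the threshold, with Vanillin above Mock, was called for 9 probes, among them Col1a2, Col5a1, Col5a2, Col12a1 and Col8a1. Another 3 (Col6a3, Col23a1 and Col27a1) were called higher in Vanillin than in both other groups and not called in Sham against Mock, and 4 (Col9a2, Col10a1, Col25a1 and the brighter Col6a6 probe) were lower than both. In 9 probes no comparison was called: those of Col2a1, Col11a2, Col4a3, Col15a1, Col28a1, Col9a3, Col16a1 and Col19a1, and one of Col4a4.

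Genes that make, process, bind or degrade collagen moved as mixed as the chains. Of 72 such genes in 8 lists, each by its brightest probe, 25 rose and 26 fell in Sham, which is 34.7% and 36.1% against 36.5% and 23.2% of all probes. Between Sham and Vanillin 29 rose and 15 fell, 40.3% and 20.8% against 15.7% and 32.2%, and 29 were above and 23 below Mock in Vanillin, 40.3% and 31.9% against 24.5% and 26.2%. These shares of all probes are those to set beside the counts of each list. Of the 72 genes 19 had more than 1 probe, and for 2 of them, Loxl1 and Itga11, probes were called in opposite directions in Sham against Mock. Of 15 enzymes and partners that hydroxylate or glycosylate the chains in the endoplasmic reticulum, 6 rose and 6 fell in Sham, and 4 rose and 3 fell with vanillin. P3h4, a partner of lysyl hydroxylase, fell from a mean of 2869 to 411 in Sham (log2 −2.76, adjusted p = 8.8e-09) and stood at 560.1 in Vanillin (0.43 above Sham, adjusted p = 0.0039). The prolyl 3-hydroxylase P3h2 fell by 2.08 (adjusted p = 3.6e-10) and rose by 0.99 with vanillin (adjusted p = 1.8e-07). The prolyl 4-hydroxylase subunit P4ha2 fell by 1.02 in Sham, and from Sham to Vanillin, where its brightest probe was not called, one of its other probes rose by 0.26 (adjusted p = 0.027) and another fell by 0.81 (adjusted p = 4.4e-05). The lysyl hydroxylase Plod3 rose by 0.92, then fell by 0.43 with vanillin (adjusted p = 0.0016). Of 6 measured chaperones and secretion factors 3 rose and 1 fell in Sham (2 fell without Vanillin 1, when Sec23a was called at −0.17, adjusted p = 0.028). Serpinh1, the collagen chaperone HSP47, fell by 0.25 in Sham (adjusted p = 0.0022) and rose by 0.20 with vanillin (adjusted p = 0.010), whereas the isomerase Fkbp14 rose by 1.31 (adjusted p = 2.2e-08) and fell by 0.63.

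Enzymes that trim and link the chains outside the cell also moved. Of 10 propeptide-processing genes 1 rose (2 without Sham 1, when Adamts3 was called at 0.25, adjusted p = 0.020) and 5 fell in Sham, and 3 rose and 2 fell with vanillin. The N-proteinases Adamts2 and Adamts14 fell in Sham by 0.52 and 0.81 and rose with vanillin by 0.45 and 0.84. The other Adamts2 probe was not called in Sham (−0.19, adjusted p = 0.053) and rose by 0.22 with vanillin (adjusted p = 0.038). The enhancer Pcolce2 fell by 1.27 and rose by 0.75, while the meprin Mep1a fell at both steps, by 1.48 and 1.05 (means of 1765, 623 and 291 in Mock, Sham and Vanillin). Of the 5 lysyl oxidases, which crosslink the fibres, 3 rose and 0 fell in Sham in limma (0 also at an unadjusted p under 0.05). Loxl2 rose from a mean of 3268 to 10880.0 (log2 1.72, adjusted p = 2.3e-07) and Lox from 555 to 1037 (log2 0.88, adjusted p = 3.7e-06), with Vanillin means of 11422 and 1077. Between Sham and Vanillin 0 rose in limma (0 at an unadjusted p under 0.05) and 2 fell, Loxl3 by 0.42 and Loxl1 by 0.23. The Loxl1 call (adjusted p = 0.033) was lost without Mock 3 (0.051), Sham 1 (0.085), Sham 2 (0.091), Vanillin 2 (0.096) or Vanillin 3 (0.10), with the 6 arrays alone (0.068) and in the 6-array block fit (0.052). The Loxl1 probes disagree: the brighter, counted here, rose by 0.41 in Sham, while the other fell by 0.58 (adjusted p = 0.00071) and was at −0.02 from Sham to Vanillin (adjusted p = 0.91). For Loxl2, not called there by its brightest probe, another probe fell by 0.42 (adjusted p = 0.00037). Loxl4, called in neither comparison by its brightest probe, rose in Sham on its other probes, by 0.43 (adjusted p = 0.00053) and 0.24 (adjusted p = 0.0057). The latter probe fell by 0.18 from Sham to Vanillin (adjusted p = 0.028).

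Most proteins that coat or space the fibrils fell in Sham and were higher with vanillin than without it. Of 11 genes 2 rose and 7 fell from Mock to Sham (median −0.86), and 9 rose and 1 fell from Sham to Vanillin (median 0.43). Lumican (Lum), which regulates fibril width, had means of 12377 in Mock, 4482 in Sham and 14107 in Vanillin. Its log2 change was −1.46 in Sham (adjusted p = 1.0e-07) and 1.65 from Sham to Vanillin (adjusted p = 1.2e-07). Keratocan (Kera) fell by 2.99 and rose by 1.29, osteoglycin (Ogn) by 1.81 and 0.77, and Prelp by 1.41 and 0.79. Periostin (Postn), which helps crosslinking, fell by 0.75 and rose by 0.91. The thrombospondin Thbs2 rose by 0.35 with vanillin on its brighter probe, and its other probe was at −0.10 (adjusted p = 0.32). Biglycan (Bgn) rose by 0.71 in Sham and was 0.73 above Mock in Vanillin, and the tenascin Tnxb fell at both steps, by 0.86 and 0.44.

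Among 10 collagen receptors 5 rose and 5 fell in Sham, and 2 rose and 4 fell with vanillin. Lair1, an inhibitory receptor of leukocytes, rose from a mean of 69.1 to 415 (log2 2.34, adjusted p = 8.8e-09) and to 544 in Vanillin (0.38 above Sham, adjusted p = 0.0032). The integrin subunit Itga2 rose by 1.62 in Sham and fell by 0.32 with vanillin, and the receptor kinase Ddr2 fell by 1.24 and rose by 0.85. The integrin subunit Itga11 fell by 0.43 in Sham on its brighter probe and rose by 0.16 on the other (adjusted p = 0.030). The platelet receptor gene Gp6 fell at both steps, by 0.82 and 0.36.

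Of the 8 measured genes of collagen breakdown 4 rose and 1 fell in Sham. The interstitial collagenases stood out in size: Mmp8 rose from a mean of 21.8 to 698 (log2 4.24, adjusted p = 2.3e-10) and Mmp13 from 615 to 11341 (log2 4.17, adjusted p = 5.5e-12). The gelatinase Mmp9 rose by 2.31 and the membrane-bound Mmp14 by 1.19, and cathepsin L (Ctsl) fell by 0.85. From Sham to Vanillin 7 rose and 1 fell, including Mmp9 by 0.69, Ctsl by 0.64, Mmp2 by 0.62 and Mmp8 by 0.60. The 1 decrease, Mmp14 by 0.18 (adjusted p = 0.027), was not called without Sham 1 (0.083), Sham 3 (0.077), Vanillin 1 (0.071) or Vanillin 3 (0.051) or in the 6-array block fit (0.081). The rise of Mmp13, 0.14 (adjusted p = 0.028), was lost without Sham 1 (0.060), Sham 3 (0.077), Vanillin 2 (0.095) or Vanillin 3 (0.058), with the 6 arrays alone (0.064) and in the 6-array block fit (0.089). In Sham against Mock 2 rather than 1 of these genes were lower without Mock 1 or without Sham 3, and against Mock the 1 lower in Vanillin, Ctsl, was lost without Mock 2 (0.061) or Vanillin 1 (0.051).

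Of the 7 other basement membrane genes, which bind or stabilise type IV, 1 rose and 1 fell in Sham. Nid2, a nidogen that links type IV to laminin, rose by 0.67 in Sham (adjusted p = 1.2e-05) and was 0.60 above Mock in Vanillin, and the peroxidasin Pxdn, which forms the sulfilimine crosslink of type IV, fell by 0.23 (adjusted p = 0.0029). From Sham to Vanillin 3 rose and 0 fell in limma (1 at an unadjusted p under 0.05), and Fbln2 rose by 0.41 (adjusted p = 0.00068). The calls of Nid1 (0.20, adjusted p = 0.042) and Pxdn (0.15, adjusted p = 0.033) were lost with the 6 arrays alone (0.067 and 0.065), with the block over all 9 arrays (0.052 and 0.060) and in the 6-array block fit (0.053 and 0.098). They were also lost, both, without Mock 3, Sham 1, Sham 3 or Vanillin 1 (0.063, 0.091, 0.12 and 0.12 for Nid1; 0.051, 0.082, 0.055 and 0.086 for Pxdn), and singly without Mock 2 or Vanillin 2 (Nid1, 0.053 and 0.10) or Sham 2 (Pxdn, 0.067). Perlecan (Hspg2) was −0.23 (adjusted p = 0.053) and was called lower without Sham 2 (0.0077) with the block over all 9 arrays (0.034) and in the 6-array block fit (0.048). The other Nid1 probe was at −0.13 from Sham to Vanillin (adjusted p = 0.09).

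**Figure D5:**
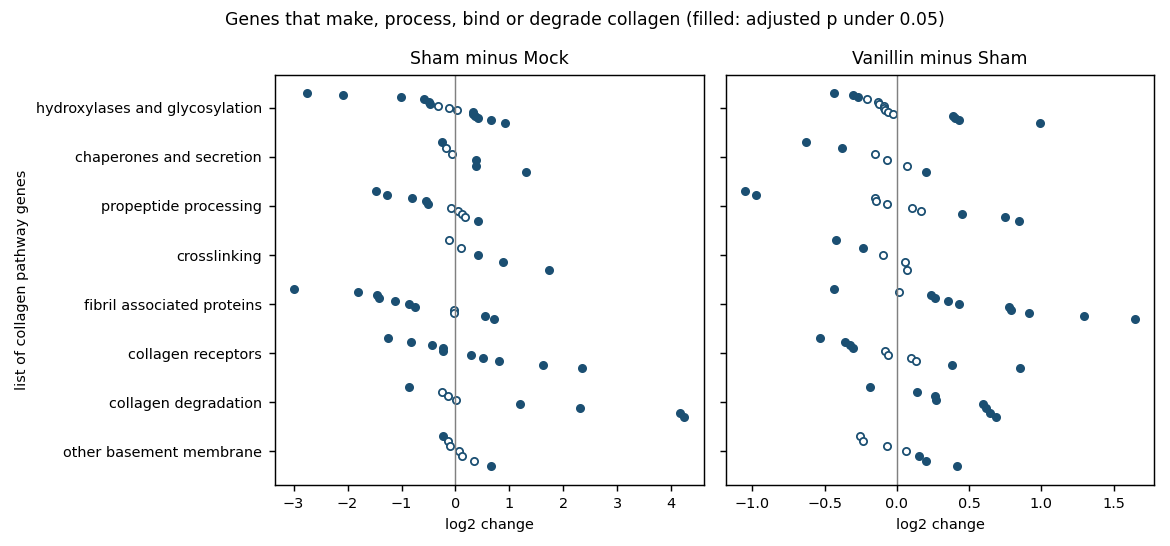
Log2 change of each of 72 genes that make, process, bind or degrade collagen, 1 point a gene (its brightest probe), by list, in Sham minus Mock and Vanillin minus Sham; filled points have an adjusted p under 0.05, and the panels have different axes. Collagen degradation reaches above 4 in Sham minus Mock with Mmp8 and Mmp13, and 9 of 11 fibril-associated genes are filled to the right of 0 in Vanillin minus Sham.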

How the data were processed

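Probe intensities of 9 arrays of colon RNA (3 each of Mock, Sham and Vanillin) were used as deposited by the authors. The labels describe amplified RNA carrying Cy5 dye, and the submitters' processing notes name limma, with role and version not given in the sources used here. The deposited intensity values look background-subtracted (83 of all values were below 0) and quantile-normalized (sorted log2 values of any 2 arrays differ by at most 0.109), and how this was done is not given in the sources used here.

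Negative values were set to 0 and log2(intensity + 16) was fitted with 3 group means over the 9 arrays in limma 3.58.1 (lmFit, eBayes, two-sided moderated test; R 4.3.3; 6 residual and 2.69 prior degrees of freedom; median residual SD 0.0895). Benjamini-Hochberg adjustment covered all 26423 probes within each comparison. The fit was tested on simulated data. With 3 arrays a group their number limits the precision. Probes were named from the platform's table, with 2126 symbols updated through a synonym. Where probes share a gene the brightest on average stands for it, with others beside it where a result named here turns on them. The collagen members, classes, 8 pathway lists and 9 marker lists were chosen with earlier results of these data known. No list was tested. Counts of calls in a comparison stand beside the shares of all probes, and counts of call patterns across comparisons do not. Arrays are given for 16 named chains and for the 4 largest increases and decreases of each comparison; of each pathway list up to 4 genes with the smallest p per comparison, and others where a list's count turns on them, chosen after their values were seen.

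The labels number the arrays 1 to 3 in each group. Deviations from the group means correlated at 0.169, 0.126 and 0.201 between same-numbered Sham and Vanillin arrays, and at −0.288 to −0.0162 between same-numbered Mock and other arrays. Differently numbered arrays gave −0.203 to 0.00172 between Sham and Vanillin, but −0.132 to 0.215 between Mock and the other groups. Pairs without a shared number thus reach as high, and these values do not settle whether the numbers pair arrays. Sham and Vanillin were also fitted with the replicate number as a block on those 6 arrays, an alternative chosen after seeing the data. Its values, and those of the 6 arrays without the block, stand beside results whose call they change. Alternatives were another pseudocount (1 or 64), leaving out the dimmest 30% of probes, renewed quantile normalization, the 6 arrays compared alone, array weights, a variance trend, the block, 1 probe per gene and leaving out each array. Protein sequences were not analysed here. Figures used matplotlib 3.10.9 in Python 3.11.15.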

Additional observations from a re-analysis of the deposited data

How the results depend on the processing

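No called change of a collagen probe reversed under any alternative; direction was compared for called changes. Called collagen probes kept their call under every alternative that tested them in 28 of 31 for Sham against Mock and 22 of 24 for Vanillin against Sham. For Vanillin against Mock 29 of 32 did so. In the same order of comparisons 7, 14 and 3 others were called under at least 1 alternative. Leaving out the dimmest 30% of probes took some collagen probes out of the test. Without those, 2 rather than 4 fibrillar probes were higher in Vanillin than in Sham. Over all alternatives the total counts of collagen probes higher and of those lower stayed within 1.5 times those reported; counts of single classes and lists, mostly small, moved by more under some, as given with the results for left-out arrays. The small median changes moved more: in Sham minus Mock from 0.026 to 0.062 when 1 array was left out (0.062 without Mock 2). In Vanillin minus Sham the median was −0.056 with a pseudocount of 1, 0.112 without the dimmest 30% of probes, −0.061 with array weights and −0.043 to 0.011 when 1 array was left out, so its sign is not settled. In Vanillin minus Mock it was 0.089 with a pseudocount of 1, 0.097 without the dimmest probes, 0.074 with 1 probe per gene and 0.036 to 0.066 when 1 array was left out. The cause was not tested. With the replicate number as a block over all 9 arrays 16 collagen probes were higher and 15 lower for Sham against Mock, 15 and 10 for Vanillin against Sham, and 18 and 14 for Vanillin against Mock, with medians of 0.037, −0.018 and 0.049. With the block on the 6 arrays compared, Vanillin minus Sham had 15 higher and 12 lower, and beside the calls given with the results it changed that of P4ha1 (−0.20, adjusted p = 0.046; 0.041 with the block over all 9 arrays). Probes under an intensity of 50 lie near background, and their changes are understated.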
